A study of Mus musculus with 10 samples.

Results

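Interferon-stimulated genes and interferon chemokines were followed as a set of 42 genes, chosen by gene symbol from the 20611 genes measured in mouse skin. The set holds 5 sensors of foreign or misplaced nucleic acid, 8 effectors of the IFIT and OAS families, 17 other effectors, 6 transcription factors or feedback genes, the chemokine genes Cxcl9 and Cxcl10, and 4 receptor genes. mRNA sequencing compared whole skin between mice with a Klk6 transgene, which codes for the secreted serine protease kallikrein-related peptidase 6, and controls. The Klk6+ group held 3 males (mice 1 to 3) and 2 females (mice 4 and 5), and the WT group likewise held 3 males (mice 1 to 3) and 2 females (mice 4 and 5).

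Klk6+ mice carried a Myc/His-tagged murine Klk6 under a tetracycline-responsive element (Tetos-Klk6) together with the K5-tTA driver. The bovine Keratin 5 promoter of that driver is active in epidermal keratinocytes and in some other stratified squamous epithelia, and in this Tet-off design doxycycline silences the transgene. WT mice were littermates with neither transgene or with only 1 of them, which alone is not expressed, and the labels do not say which WT mouse carried which. Both lines were backcrossed to C57BL/6, and mice of the F4 generation onward were used. The labels' protocols put the mice back on doxycycline chow at 10 to 11 weeks and date the tissue to 14 to 16 weeks of age, without a statement for single libraries. Klk6 itself lay between 10290 and 14769 CPM (counts scaled to a common library total) in the Klk6+ mice, against 12.7 to 26.47 CPM in the WT mice, so every library matched its label.

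Type I interferons signal through a receptor made of IFNAR1 and IFNAR2, and interferon gamma through IFNGR1 and IFNGR2. Janus kinases at these receptors phosphorylate STAT proteins. A complex of STAT proteins with IRF9 then binds interferon-stimulated response elements (ISREs), and STAT pairs bind gamma-activated sequences (GAS). The genes switched on in this way restrict viruses, raise the level of the sensors and factors that started the response, and draw T cells through CXCL9 and CXCL10. In skin, keratinocytes, fibroblasts, endothelium and resident leukocytes can all respond.

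Library totals lay between 26521019 and 39796511 counts in the Klk6+ mice and between 32798416 and 41970272 in the WT mice, so 1 count was worth 0.023 to 0.0372 CPM. Genotype was tested with edgeR's quasi-likelihood test with sex as a covariate, over the 14861 genes that passed a filter on low counts. A gene is called lower or higher in Klk6+ skin where its Benjamini-Hochberg adjusted p over all of these genes is below 0.05. Log2 fold changes are Klk6+ over WT, ± a standard error. That standard error was derived from the test, as the absolute log2 fold change divided by the square root of the F statistic. Nothing in the labels says that the mice were processed as separate batches. The p-values weigh the genotype difference against the spread between mice that is left after genotype and sex.

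Interferon-stimulated genes were lower in Klk6+ skin across nearly the whole set. All 42 members passed the filter, 40 were called lower, and none was called higher. Ifi35 and Ifngr2 were not called. No member was higher at an unadjusted p below 0.05 either, and DESeq2 and limma-voom also called 0 members higher. Genotype changed much of the skin transcriptome: over all genes tested 35.1% were called lower and 37.7% higher, and the members' 40 of 42 is read against that first share. The median log2 fold change of the members was -2.26, while that of all genes tested was 0.04. At least 4-fold lower were 26 of the 42 members, against 8.07% of all genes tested. In 36 members every Klk6+ mouse lay below every WT mouse, which held for 27% of all genes tested, and the deposited FPKM values (fragments scaled to gene length and library size) gave the same count of 36. In whole skin a lower level from fewer cells that make a transcript and one from less RNA per cell cannot be told apart.

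**Figure D1:**
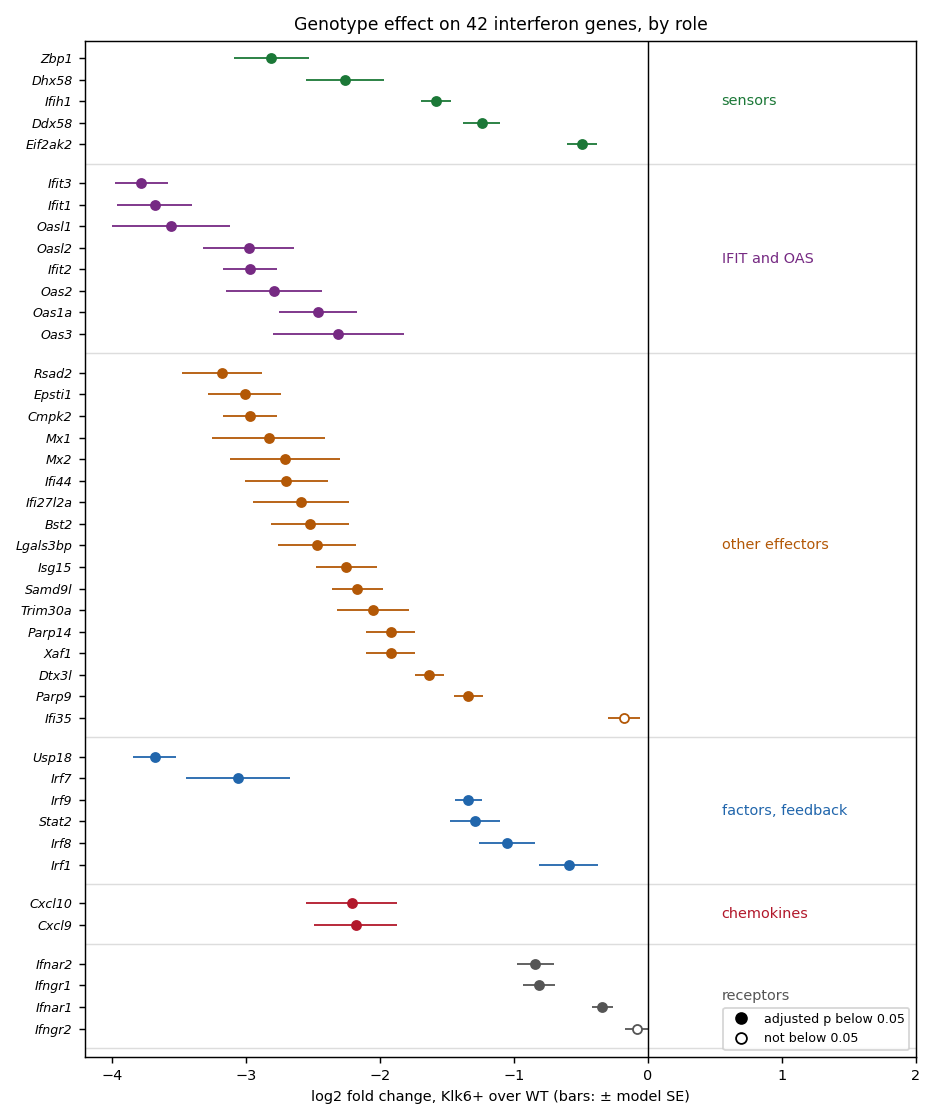
Log2 fold change (Klk6+ over WT) of each of the 42 members, grouped by role and ordered within each role. Bars are ± 1 standard error derived from the F statistic, labelled model SE on the axis. Every point lies left of 0, from -3.78 for Ifit3 to -0.08 for Ifngr2; the 2 open points, Ifi35 and Ifngr2, are the members that were not called.

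Oasl1, Mx1 and Mx2 were below the filter level of 0.302 CPM in at least 1 Klk6+ library, so they needed WT libraries to pass it. Among the 39 others 37 were called lower, with a median of -2.21. Medians differed by role, and the differences between roles were not tested. The IFIT and OAS genes had a median log2 fold change of -2.98, the other effectors -2.47, the chemokines -2.20, the sensors -1.58, the factors and feedback genes -1.32 and the receptors -0.58.

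Promoter sequence is shown here because the factors of this pathway bind known motifs. RefSeq windows of 300 bases (250 before and 50 after the annotated start, GRCm38.p6) were found for 33 of the 42 members. In 32 of the 38 windows of these members, bases just after the start occurred in a GENCODE transcript of the gene. In the other windows the start was not matched in this way. On both strands the search covered the ISRE core GAAANNGAA, which reads TTCNNTTTC on the other strand, and the GAS motif TTCNNNGAA, which is its own reverse complement. The ISRE core was present in 16 of the 33 members (48.5%), against 8.95% of the 11777 tested genes with a window and 10.3% of the 4018 such genes called lower. The GAS motif was present in 9 of the 33 members (27.3%), against 8.46% of the tested genes. By role, the ISRE core was found in 3 of 3 sensors with a window, 4 of 7 IFIT and OAS genes, 6 of 12 other effectors, 1 of 5 factors and feedback genes, 2 of 2 chemokines and 0 of 4 receptors. A match describes letters and is no evidence of binding, and a window without one says only that these letters are not there. A larger share in a set chosen for its interferon-stimulated genes can come from that choice alone. It therefore says nothing about the genotype difference.

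The 250 bases before the start are printed for the member of most negative fold change (Ifit3), for Isg15, for a chemokine (Cxcl10) and for a factor whose window holds GAS but no ISRE core (Irf8). Each runs 5′ to 3′ on the gene's own strand, and capitals mark the motif matches. They are Ifit3 on the plus strand at chr19:34583279-34583528, Isg15 on the minus strand at chr4:156200819-156201068, Cxcl10 on the minus strand at chr5:92348890-92349139 and Irf8 on the plus strand at chr8:120736108-120736357.
Ifit3: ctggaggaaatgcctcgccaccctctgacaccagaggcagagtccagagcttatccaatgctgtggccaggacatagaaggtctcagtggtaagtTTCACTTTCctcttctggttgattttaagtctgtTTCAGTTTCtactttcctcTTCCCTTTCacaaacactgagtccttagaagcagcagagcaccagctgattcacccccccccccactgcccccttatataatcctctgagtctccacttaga
Isg15: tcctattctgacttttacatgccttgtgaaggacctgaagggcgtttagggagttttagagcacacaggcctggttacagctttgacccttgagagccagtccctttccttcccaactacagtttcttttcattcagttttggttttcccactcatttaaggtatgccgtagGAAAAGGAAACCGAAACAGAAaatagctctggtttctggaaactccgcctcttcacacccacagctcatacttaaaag
Cxcl10: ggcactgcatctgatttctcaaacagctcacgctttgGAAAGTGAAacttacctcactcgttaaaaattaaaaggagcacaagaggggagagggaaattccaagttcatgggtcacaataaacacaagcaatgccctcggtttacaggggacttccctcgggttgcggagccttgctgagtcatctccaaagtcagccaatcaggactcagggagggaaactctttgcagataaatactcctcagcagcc
Irf8: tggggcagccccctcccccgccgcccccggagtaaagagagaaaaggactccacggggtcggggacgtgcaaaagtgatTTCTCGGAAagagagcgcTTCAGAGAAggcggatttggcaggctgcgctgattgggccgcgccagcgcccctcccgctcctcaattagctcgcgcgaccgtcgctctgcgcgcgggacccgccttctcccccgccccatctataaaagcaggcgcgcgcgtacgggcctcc

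Ifit3 holds 3 ISRE cores, which begin 155, 121 and 102 bases before the start. Isg15 holds overlapping cores in 1 run that begins 78 bases before the start, and the single core of Cxcl10 begins 213 bases before it. Short stretches around the matches of other members are given next, with a few flanking bases on each side and the matches in capitals, so that their spacing and repeats can be compared.
Ifit1 at chr19:34640776-34640798, plus strand: aggcTTCAGTTTCACTTTCcagt
Oas1a at chr5:120907527-120907549, minus strand: tcggGAAATGGAAACTGAAaatc
Oas3 at chr5:120777716-120777738, minus strand: aggaGAAAACGAAAGTGAAggga
Rsad2 at chr12:26456559-26456575, minus strand: aactTTCATTTTCagaa
Bst2 at chr8:71537584-71537612, minus strand: ggcaTTCCAGGAAAATGAAACTGAAaggc
Ifih1 at chr2:62646355-62646371, minus strand: cgcgTTCCCTTTCctgt
Stat2 at chr10:128270273-128270289, plus strand: tggtTTCAGTTTCcttt
Cxcl9 at chr5:92328242-92328258, minus strand: atgtGAAATGGAAgtag
Irf1 at chr11:53769920-53769936, plus strand: tgatTTCCCCGAAatga
Ifnar2 at chr16:91372565-91372581, plus strand: ggccTTCCTGGAAgaag

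Ifit1, Oas1a and Oas3 each show 2 ISRE cores that share bases within 1 run. In Bst2 a GAS match runs into ISRE cores, the only member window in which matches of both motifs overlapped. Irf1 and Ifnar2 show the GAS motif alone.

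The receptors, where the pathway starts, had the median nearest to 0. Ifnar2 encodes the chain that binds type I interferon tightly, and it had 18.8, 18.4, 22.7, 22.5 and 23.9 CPM in Klk6+ mice, against 26.1, 30.1, 33.2, 55.6 and 53.3 CPM in WT mice. All 5 Klk6+ mice lay below all WT mice (log2 fold change -0.84 ± 0.14, adjusted p = 0.0003). Ifnar1, the other chain, had 41.5, 44.3, 45.9, 49.6 and 53.8 CPM in Klk6+ mice, against 48.2, 57.8, 52.2, 66.6 and 75.7 CPM in WT mice. The groups overlapped for Ifnar1, and the call rested on a small difference (log2 fold change -0.34 ± 0.08, adjusted p = 0.00328).

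Ifngr1, the ligand-binding chain of the interferon gamma receptor, had 109.8, 98, 96.4, 93.9 and 128 CPM in Klk6+ mice, against 146, 206, 178, 186 and 209 CPM in WT mice, with no overlap (log2 fold change -0.81 ± 0.12, adjusted p = 0.000139). Ifngr2, its signalling chain, had 63.5, 60.3, 55.7, 72.4 and 55.4 CPM in Klk6+ mice, against 62.8, 57, 60.8, 69 and 76.5 CPM in WT mice. Ifngr2 was not called (log2 fold change -0.08 ± 0.09, adjusted p = 0.451), and its groups overlapped over most of their range. All but Ifngr1 are close neighbours on chromosome 16 of GRCm38: Ifnar2 at chr16:91372783-91405589, Ifnar1 at chr16:91485238-91507441 and Ifngr2 at chr16:91547072-91565623, with the interleukin 10 receptor gene Il10rb between the first pair. Of Ifnar2's exon bases 9.5% are shared with the annotated gene Gm21970, and reads there cannot be assigned without strand.

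The sensors fell to different degrees. Ifih1 encodes MDA5, which detects long double-stranded RNA, and it had 10, 11.7, 12.8, 13.3 and 18.7 CPM in Klk6+ mice, against 37.8, 34.6, 34.8, 48.6 and 42.1 CPM in WT mice. Ddx58, which encodes RIG-I, the sensor of short RNA with a 5′ triphosphate, had 10.8, 10.3, 11.2, 10.9 and 15.7 CPM in Klk6+ mice, against 23.2, 22.5, 20.9, 42 and 34.8 CPM in WT mice. In both genes the lowest WT mouse was above the highest Klk6+ mouse, with a log2 fold change of -1.58 for Ifih1 and -1.24 for Ddx58 (adjusted p = 1.50e-06 and 1.82e-05).

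Zbp1 had the most negative fold change among the sensors. It encodes a receptor of left-handed nucleic acid that can start necroptosis. Zbp1 had 1.27, 1.43, 2.5, 1.85 and 4.47 CPM in Klk6+ mice, against 10, 11.9, 11.5, 30.7 and 20 CPM in WT mice (log2 fold change -2.81 ± 0.28, adjusted p = 1.04e-05). Dhx58, encoding LGP2, which tunes the other RNA helicase sensors, averaged 2.36 ± 1.32 CPM in Klk6+ mice and 12.2 ± 7.81 CPM in WT mice (SD, n = 5 each, log2 fold change -2.26 ± 0.29, adjusted p = 5.72e-05). Eif2ak2 encodes PKR, a kinase that halts translation on binding double-stranded RNA, and it had 13.5, 11.8, 15.5, 14.9 and 16.2 CPM in Klk6+ mice, against 19.9, 19.6, 16.9, 24.6 and 20.2 CPM in WT mice. Its groups were narrowly separate, since the highest Klk6+ mouse was at 16.2 CPM and the lowest WT mouse at 16.9 CPM (log2 fold change -0.49 ± 0.11, adjusted p = 0.00182).

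The IFIT genes encode proteins that bind viral RNA lacking the marks of host mRNA, and they stood among the members of most negative fold change. Ifit3 had 2.15, 1.92, 2.66, 3.06 and 5.03 CPM in Klk6+ mice, against 36.5, 30.4, 28.9, 66.5 and 39.7 CPM in WT mice (log2 fold change -3.78 ± 0.20, adjusted p = 3.64e-07). Ifit1 had 0.708, 0.941, 1.4, 2.62 and 2.72 CPM in Klk6+ mice, against 23.3, 14.3, 14.9, 26.5 and 19.4 CPM in WT mice (log2 fold change -3.68 ± 0.28, adjusted p = 1.96e-06). Ifit2 averaged 3.94 ± 1.82 CPM in Klk6+ mice and 29.9 ± 7.92 CPM in WT mice (SD, n = 5 each), and its log2 fold change was -2.97. No Klk6+ mouse reached the lowest WT mouse in any of the 3 genes. They lie in 1 cluster on chromosome 19, Ifit2 at chr19:34550694-34576419, Ifit3 at chr19:34583531-34588731 and Ifit1 at chr19:34640871-34650009. Of the 50-base windows of Ifit3 transcripts 51.2% occur in another gene, chiefly the neighbouring copy Ifit3b, so with 50-base reads the split between the copies is uncertain. Ifit3b itself was also called lower (log2 fold change -3.70 ± 0.26, adjusted p = 1.32e-06).

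The OAS genes encode synthetases of 2′-5′ linked oligoadenylate, the signal that activates RNase L, and OAS-like proteins. Oasl2 had 1.67, 2.82, 6.05, 5.37 and 8.79 CPM in Klk6+ mice, against 23.6, 24.5, 23.7, 91.1 and 48 CPM in WT mice (log2 fold change -2.98 ± 0.34, adjusted p = 2.49e-05). Oas3 had the least negative fold change of the OAS genes in the set and the largest standard error among the members. Oas3 had 0.567, 2.09, 3.26, 2.04 and 5.21 CPM in Klk6+ mice, against 6.38, 10.6, 5.56, 36.8 and 16 CPM in WT mice (log2 fold change -2.31 ± 0.49, adjusted p = 0.0016). The wide spread came from both groups, with the WT females above the WT males and 1 Klk6+ male far below the others.

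Oasl1, which in the mouse limits translation of Irf7, averaged 0.913 ± 0.657 CPM in Klk6+ mice and 11.5 ± 7.22 CPM in WT mice (SD, n = 5 each), and its log2 fold change was -3.56. Oas2 averaged 0.942 ± 0.644 CPM in Klk6+ mice and 7.24 ± 5.45 CPM in WT mice (SD, n = 5 each) and Oas1a 2.86 ± 1.25 CPM in Klk6+ mice and 17.3 ± 11.8 CPM in WT mice (SD, n = 5 each), with log2 fold changes of -2.79 and -2.46. None of these 3 genes overlapped between genotypes. Of the 50-base windows of Oas1a 57.6% are shared with other genes, among them Oas1g and Oas1b, so its own value is uncertain. Oas1g (log2 fold change -2.64) and Oas1b (-1.14) were called lower as well. Summed over the 8 IFIT and OAS genes, Klk6+ mice held 10.3 to 37.6 CPM and WT mice 113 to 335 CPM.

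Isg15 encodes a ubiquitin-like protein that is attached to newly made proteins and is also secreted. Isg15 had 2.41, 2.33, 2.76, 2.62 and 3.65 CPM in Klk6+ mice, against 11.8, 15, 8.49, 20.6 and 10 CPM in WT mice (log2 fold change -2.25 ± 0.23, adjusted p = 1.33e-05). Rsad2 encodes viperin, an enzyme that makes a chain-terminating nucleotide, and had 1.33, 1.15, 2.6, 1.73 and 3.69 CPM in Klk6+ mice, against 14.5, 19.7, 10.6, 29.5 and 22.4 CPM in WT mice (log2 fold change -3.18 ± 0.30, adjusted p = 7.41e-06). It was the most negative of the 17 other effectors. Cmpk2, a mitochondrial nucleotide kinase gene beside it on chromosome 12, averaged 2.43 ± 0.976 CPM in Klk6+ mice and 18.8 ± 6.13 CPM in WT mice (SD, n = 5 each), and its log2 fold change was -2.97.

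Mx1 and Mx2 are genes of the dynamin-like GTPase family, and whether these mice make working proteins from them was not tested. Mx1 had 0.255, 0.348, 0.421, 0.648 and 1.04 CPM in Klk6+ mice, against 2.18, 5.42, 1.2, 5.32 and 4.15 CPM in WT mice (log2 fold change -2.83 ± 0.42, adjusted p = 0.000142). Mx2 averaged 0.234 ± 0.151 CPM in Klk6+ mice and 1.57 ± 0.814 CPM in WT mice (SD, n = 5 each) and was the least abundant member by FPKM in both genotypes (log2 fold change -2.71 ± 0.41, adjusted p = 0.000184). Both genes lay near the filter level in Klk6+ skin, where 1 count is a sizeable part of the value.

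Among the remaining effectors, Epsti1 (log2 fold change -3.01), Ifi44 (-2.70), Ifi27l2a (-2.59) and Bst2 (-2.52), which encodes the virus-retaining protein tetherin, fell furthest. Ifi27l2a was the member of highest FPKM in both genotypes, at 77.4 FPKM in Klk6+ skin and 485 FPKM in WT skin. Lgals3bp, a secreted glycoprotein, averaged 32 ± 12.4 CPM in Klk6+ mice and 203 ± 144 CPM in WT mice (SD, n = 5 each, log2 fold change -2.47 ± 0.29, adjusted p = 3.34e-05). Samd9l, which restrains translation and growth, had a log2 fold change of -2.17, Trim30a one of -2.05, and the apoptosis-promoting Xaf1 one of -1.92.

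Parp14 (log2 fold change -1.92), Dtx3l (-1.63) and Parp9 (-1.34) belong to the ADP-ribosylation branch of the response, and DTX3L and PARP9 work as a pair. Their genes adjoin on chromosome 16 and share 9.4% of the exon bases of Parp9 and 8% of those of Dtx3l. Ifi35 was the exception among the effectors. Ifi35 had 28, 21.1, 18.7, 22.9 and 22.4 CPM in Klk6+ mice, against 23.1, 28.4, 26.8, 26.1 and 23.3 CPM in WT mice, so its groups overlapped (log2 fold change -0.18 ± 0.12, adjusted p = 0.201). Of its exon bases 16.8% are shared with the annotated gene Gm11626. Nmi, which encodes the binding partner of IFI35, was called lower (log2 fold change -0.64 ± 0.11, adjusted p = 0.000549).

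**Figure D2:**
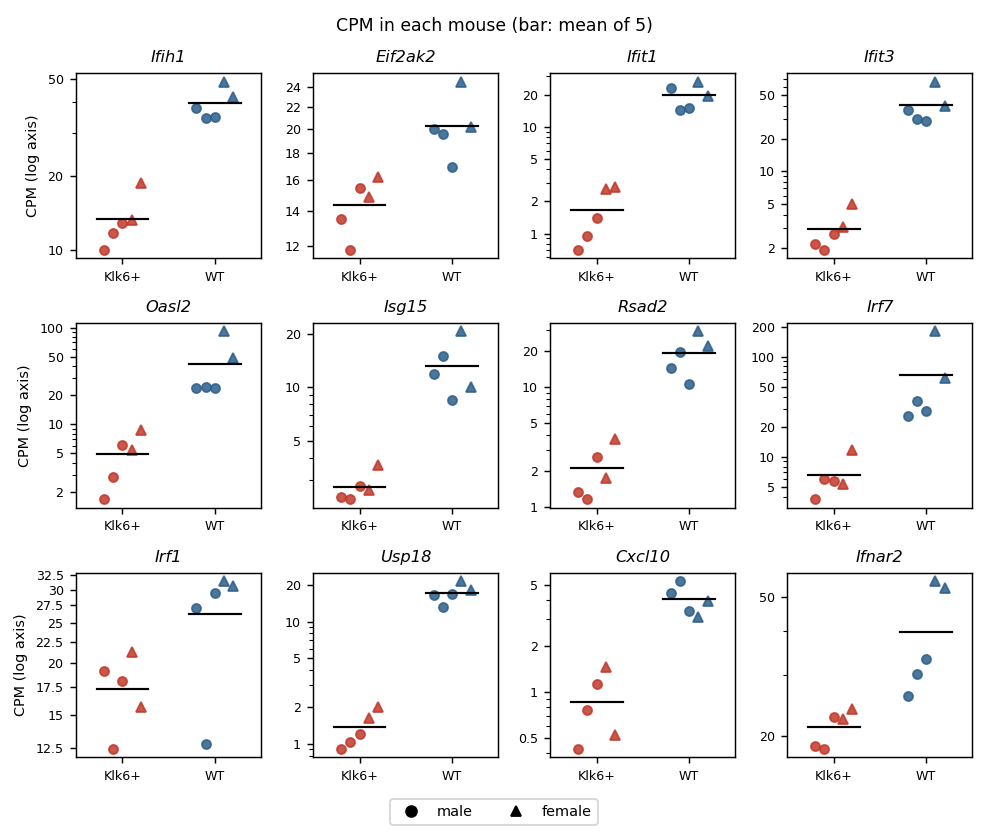
CPM (log axis) of 12 members in each Klk6+ mouse (left) and each WT mouse (right), with circles for males, triangles for females and a bar at the mean of 5. Ifit3 spans 1.92 to 5.03 CPM in Klk6+ mice and 28.9 to 66.5 CPM in WT mice, while the groups of Irf1 overlap because 1 WT male is at 12.8 CPM.

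Among the transcription factors Irf7 stood apart with the most negative fold change. Irf7, the factor that amplifies production of interferon alpha, had 3.77, 6.03, 5.76, 5.37 and 11.8 CPM in Klk6+ mice, against 25.3, 36.5, 28.9, 179 and 61.2 CPM in WT mice (log2 fold change -3.06 ± 0.39, adjusted p = 5.49e-05). WT female 4 was far above every other mouse. Stat2 had 12.8, 8.92, 8.39, 17.2 and 11.1 CPM in Klk6+ mice, against 26.8, 16.2, 23.7, 43.9 and 36.9 CPM in WT mice (log2 fold change -1.29 ± 0.19, adjusted p = 0.000163), with the highest Klk6+ mouse above the lowest WT mouse. Irf9, which with STAT proteins forms the complex that binds ISREs, had 17, 14.1, 16.1, 21.5 and 17.3 CPM in Klk6+ mice, against 42.5, 34.1, 42.2, 52.4 and 46.8 CPM in WT mice, with no overlap (log2 fold change -1.34 ± 0.10, adjusted p = 1.83e-06).

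Irf8, a factor needed for the development of monocytes and dendritic cells, had 10, 9.34, 11, 14.4 and 14 CPM in Klk6+ mice, against 13.2, 13.6, 20.8, 43.4 and 46.4 CPM in WT mice (log2 fold change -1.05 ± 0.21, adjusted p = 0.00105). Both WT females were above every other mouse, and the highest Klk6+ mice lay above the lowest WT mice. Irf1, an early target of interferon gamma, had 19.1, 12.4, 18.1, 21.2 and 15.7 CPM in Klk6+ mice, against 27.1, 12.8, 29.4, 31.4 and 30.6 CPM in WT mice (log2 fold change -0.59 ± 0.22, adjusted p = 0.0363). Irf1 had the weakest call of the 40: WT male 2 lay among the Klk6+ mice, and the adjusted p was above 0.05 in 11 of 21 alternative analyses, reaching 0.091. Leaving out any 1 of Klk6+ mice 2 or 5 or WT mice 1, 3, 4 or 5 ended the call, with log2 fold changes from -0.59 to -0.50.

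Usp18 encodes a protease that removes ISG15 and blocks signalling at IFNAR2, and interferon itself induces it. Usp18 had 0.907, 1.04, 1.21, 1.64 and 2.01 CPM in Klk6+ mice, against 16.4, 13, 16.6, 21.4 and 18 CPM in WT mice. The groups were far apart (log2 fold change -3.68 ± 0.16, adjusted p = 1.60e-07), and this was the smallest adjusted p of the set. The SD of log2 CPM was 0.47 in Klk6+ mice, the same as the members' median there, and 0.26 in WT mice.

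The chemokine genes Cxcl9 and Cxcl10, whose products attract T cells that carry CXCR3, were low in skin of both genotypes and lower in Klk6+ skin. Cxcl9 had 1.67, 0.836, 1.55, 1.17 and 1.42 CPM in Klk6+ mice, against 5.79, 3.03, 9.21, 5.91 and 6.42 CPM in WT mice (log2 fold change -2.18 ± 0.31, adjusted p = 0.000109). Cxcl10 had 0.425, 0.766, 1.13, 1.45 and 0.521 CPM in Klk6+ mice, against 4.43, 5.27, 3.38, 3.07 and 3.91 CPM in WT mice (log2 fold change -2.21 ± 0.34, adjusted p = 0.000211). Neither gene overlapped between genotypes. Unlike most members, the pair was not highest in the WT females. They lie in the same cluster on chromosome 5, Cxcl9 at chr5:92321347-92328079 and Cxcl10 at chr5:92346638-92348889, and 5.9% of the exon bases of Cxcl10 are shared with Art3.

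**Figure D3:**
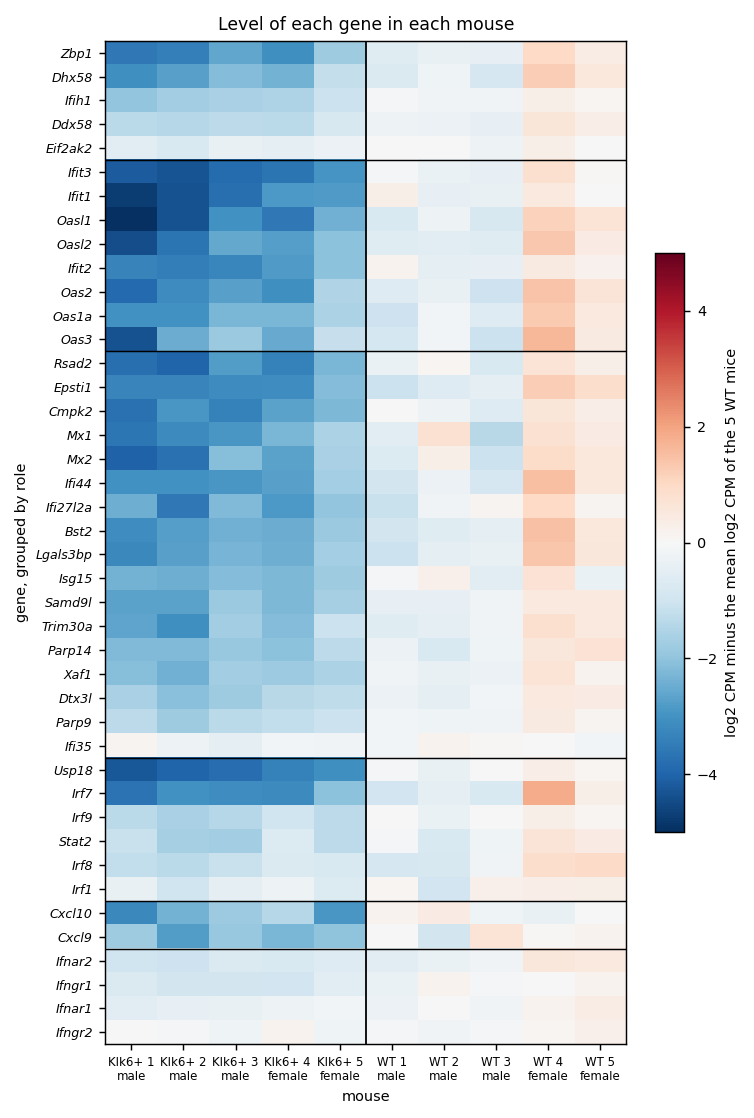
Log2 CPM of each member in each of the 10 mice, minus the mean log2 CPM of the 5 WT mice, with Klk6+ mice on the left and genes grouped by role. Of the 210 values in Klk6+ mice 2 lie above the WT mean, Ifi35 in Klk6+ 1 and Ifngr2 in Klk6+ 4, and the blue of the rest is pale in the receptors; Klk6+ 5 is the highest Klk6+ mouse in 34 of 42 members and WT 4 the highest WT mouse in 33 of 42.

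The same mouse of a genotype was often the highest over the members. Klk6+ female 5 was the highest Klk6+ mouse for 34 of the 42 members, and Klk6+ males 1 and 2 were the lowest for 20 and 18. WT female 4 was the highest WT mouse for 33 members, while WT males 1, 2 and 3 were the lowest for 15, 14 and 12. Both WT females exceeded all 3 WT males in 35 members, against 19.2% of all genes tested, and both Klk6+ females exceeded all 3 Klk6+ males in 15 members, against 8.43%. The median SD of log2 CPM over the members was 0.47 in Klk6+ mice and 0.56 in WT mice.

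The genotype difference was seen in both sexes. In males 39 members were called lower, where 31% of all genes tested were, and the median log2 fold change was -2.07. In females 39 members were called lower, where 28.4% of all genes tested were, and the median was -2.45. Irf1, Ifi35 and Ifngr2 were the members not called in either sex. The median in females was -2.91 without Klk6+ female 5, whose omission left 1 Klk6+ female that is assumed to vary like the other groups.

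The difference between the sexes was tested as an interaction, the effect in females minus that in males. edgeR called 0 members and 0% of all genes tested, with a lowest adjusted p of 0.296 among the members. At an unadjusted p below 0.05 there were 4 members, and 9.49% of all genes tested. DESeq2 called 0 members and 261 genes. The median interaction of the members was -0.27 and 33 of 42 were negative, which describes the larger fold change in females without a call for any gene. With 2 females per genotype this comparison has low precision.

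**Figure D4:**
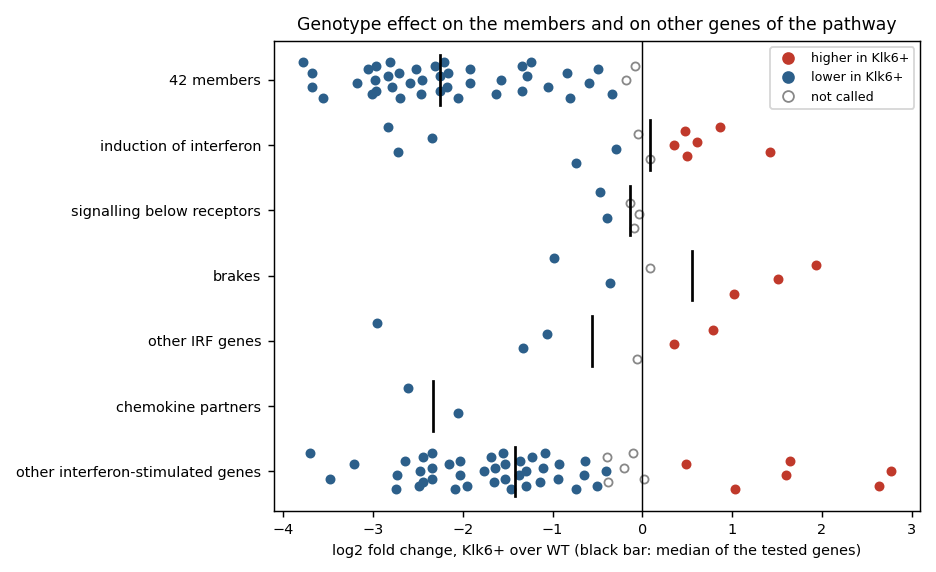
Log2 fold change (Klk6+ over WT) of the 42 members and of the tested genes of 6 other groups of the interferon pathway; blue points were called lower, red points higher, open points were not called, and black bars are medians. The members, the chemokine partners and the signalling group, which includes the receptor chain genes Il10rb and Ifnlr1, lie left of 0. The induction genes, brakes, other IRF genes and other interferon-stimulated genes fall on both sides.

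Interferon genes themselves were close to undetectable. Of 21 ligand genes 18 had 0 counts in all 10 libraries, which over the group allows up to 0.0182 CPM in Klk6+ mice and 0.0164 CPM in WT mice (3 counts, counting error only). Ifnk, the keratinocyte interferon, had 0 counts in the Klk6+ mice and 4 in the WT mice. Ifng had 6 and 8 counts and Ifnz 16 and 7 counts in Klk6+ and WT mice. No ligand gene passed the filter, and a difference between genotypes was not detectable at this depth.

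Of 13 tested genes that induce interferon, 5 were called lower and 6 higher, with a median of 0.09, shares near the 35.1% and 37.7% of all genes tested. Lower were the endosomal nucleic acid receptors Tlr9 (log2 fold change -2.83), Tlr7 (-2.72) and Tlr3 (-0.74), their chaperone Unc93b1 (-2.34) and Mavs (-0.29), the adaptor of RIG-I and MDA5. Higher were the adaptor Myd88 (log2 fold change 1.42 ± 0.10, adjusted p = 1.13e-06), the cyclic GMP-AMP synthase gene Mb21d1 (0.86), the kinase gene Tbk1 (0.61), Traf3 (0.48), Ikbke (0.50) and Ticam1 (0.35). Traf3 was not called without Klk6+ 3 and 5 or without WT 4 and Klk6+ 5 (adjusted p up to 0.0938).

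Of 5 genes grouped as signalling below the receptors 2 were called lower and 0 higher, against 35.1% and 37.7% of all genes tested. The group holds the Janus kinase genes Jak1, Jak2 and Tyk2, but also the receptor chain genes Il10rb and Ifnlr1. The lower genes were Il10rb (log2 fold change -0.47 ± 0.16, adjusted p = 0.0251) and Jak1 (log2 fold change -0.40 ± 0.13, adjusted p = 0.0191). Il10rb lost the call in 4 of 21 alternative analyses, among them those without WT 3 or WT 5 (adjusted p up to 0.0671), and Jak1 lost it without Klk6+ 1, WT 2 or WT 5 (adjusted p up to 0.0614). Tyk2 (log2 fold change -0.14), Jak2 (-0.09) and Ifnlr1 (-0.04) were not called.

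Of 6 brakes on the pathway 2 were called lower and 3 higher, which is also near the shares of all genes tested. Socs1, an inhibitor of Janus kinases, had 14, 9.93, 12.1, 17.7 and 9.98 CPM in Klk6+ mice, against 3.63, 3.56, 1.64, 5.12 and 2.84 CPM in WT mice and was called higher (log2 fold change 1.93 ± 0.28, adjusted p = 0.000118). Socs3 (log2 fold change 1.51 ± 0.35, adjusted p = 0.00258) and the phosphatase gene Ptpn2 (log2 fold change 1.02 ± 0.08, adjusted p = 3.02e-06) were called higher too. Ptpn6, a phosphatase gene of leukocytes (log2 fold change -0.98), and Pias1 (-0.36) were called lower. Ptpn11 was not called.

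Of 6 other IRF genes 3 were called lower and 2 higher, again near the 35.1% and 37.7% of all genes tested. Irf4 (log2 fold change -2.96 ± 0.32, adjusted p = 1.79e-05), Irf5 (log2 fold change -1.33 ± 0.19, adjusted p = 9.75e-05) and Irf2 (log2 fold change -1.06 ± 0.10, adjusted p = 5.28e-06) were lower. Irf3, which carries the signal of the nucleic acid sensors, was higher, at 37.5 ± 2.84 CPM in Klk6+ mice and 21.8 ± 2.66 CPM in WT mice (SD, n = 5 each, log2 fold change 0.79 ± 0.09, adjusted p = 2.63e-05). Irf2bp1 was higher too (log2 fold change 0.35 ± 0.12, adjusted p = 0.022), but its call was lost in 6 of 21 alternative analyses, among them those without Klk6+ 4, Klk6+ 5 or WT 5 (adjusted p up to 0.105).

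The partners of the chemokines were low as well. Cxcr3, the receptor of CXCL9 and CXCL10, averaged 1.03 ± 0.388 CPM in Klk6+ mice and 4.62 ± 2.67 CPM in WT mice (SD, n = 5 each, log2 fold change -2.06 ± 0.26, adjusted p = 5.39e-05). Ccl5, another chemokine gene, was called lower (log2 fold change -2.61), and Cxcl11 did not pass the filter. Ccl5 lay below the filter level of 0.302 CPM in Klk6+ 3 (0.263 CPM), so it needed WT libraries to pass.

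A wider list of 53 further interferon-stimulated genes was examined, of which 52 were tested. In it 41 were called lower, 6 higher and 5 neither, with a median of -1.41. Ifit1bl1 and Ifit1bl2, both called lower, fell below the filter level of 0.302 CPM in Klk6+ mice, with lowest values of 0.0348 and 0.113 CPM. Both therefore needed WT libraries to pass. Phf11b, also called lower, lay close to that level in Klk6+ 2 (0.3135 CPM). Over all genes tested 35.1% were called lower and 37.7% higher. Among the lower genes of smallest p were Ifit3b (log2 fold change -3.70), the RNA-binding helicase gene Znfx1 (-1.46), the immunoproteasome gene Psmb8 (-1.30) and Tdrd7 (-1.69). Higher were Ifitm1 (log2 fold change 2.77 ± 0.31, adjusted p = 2.13e-05), the cytosolic DNA sensor Aim2 (log2 fold change 2.64 ± 0.29, adjusted p = 2.08e-05), Slfn9 (1.64), Lap3 (1.60), Pnpt1 (1.03) and Ifitm2 (0.49), of which Slfn9 and Ifitm2 are named after their values were seen. Ifitm1 had 39.8, 26.5, 87.2, 47.9 and 88.4 CPM in Klk6+ mice, against 7.83, 8.33, 6.88, 9.45 and 9.73 CPM in WT mice, with every Klk6+ mouse above every WT mouse.

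Markers of the cell types in skin differed between genotypes beside these genes. Over all genes tested 35.1% were called lower and 37.7% higher. The counts of markers called, here and in the next paragraphs, are read against these shares. All 10 macrophage and monocyte markers were called lower (median log2 fold change -1.99), and their sum was 317 to 1144 CPM in Klk6+ mice and 1070 to 4691 CPM in WT mice. In WT mice that sum was highest in females 4 and 5, at 3944 and 4691 CPM, and the WT males lay between 1070 and 1867 CPM. In Klk6+ mice it was highest in female 5. Of 8 tested markers of T and NK cells 7 were called lower (median -1.70), with sums of 9.32 to 13.4 CPM in Klk6+ mice and 23.3 to 41.2 CPM in WT mice.

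Of 9 tested markers of dendritic and Langerhans cells 7 were called lower and 1, Epcam, higher, although Epcam is also made by keratinocytes. Clec9a, 1 of the 7, lay below the filter level of 0.302 CPM in Klk6+ 4 (0.2469 CPM), so it needed WT libraries to pass. The 4 markers listed for plasmacytoid dendritic cells, which are strong producers of type I interferon, did not move together. Siglech was at 0.455 ± 0.307 CPM in Klk6+ mice and 4.31 ± 1.38 CPM in WT mice (SD, n = 5 each, log2 fold change -3.23 ± 0.43, adjusted p = 7.86e-05). Siglech lay below the filter level of 0.302 CPM in Klk6+ 4 and 5 (0.2469 and 0.2235 CPM), so it needed WT libraries to pass. Ccr9 was called higher, at 3.2 ± 0.713 CPM in Klk6+ mice and 1.68 ± 0.517 CPM in WT mice (SD, n = 5 each, log2 fold change 0.94 ± 0.23, adjusted p = 0.00432). Cox6a2, which muscle also makes, was called lower. Pacsin1 did not pass the filter (mean 0.207 CPM in Klk6+ mice and 0.235 CPM in WT mice). All 6 neutrophil markers tested were called higher (median 5.96), with sums of 6001 to 10004 CPM in Klk6+ mice and 24.4 to 40.3 CPM in WT mice. S100a8 and S100a9, which keratinocytes can also make, supply most of that sum.

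Keratinocyte markers summed to 19048 to 28507 CPM in Klk6+ mice and 4827 to 14082 CPM in WT mice, with 4 of 6 called higher and Krt10 called lower. All tested markers of fibroblasts (5), endothelium (6), adipocytes (5) and skeletal muscle (6) were called lower, with medians of -1.61, -0.81, -1.58 and -3.27. Keratin RNA was abundant in all 10 libraries, as the labelled tissue has it, and RNA of muscle, fat and leukocytes was present beside it. The part of these shifts in the lower level of the interferon-stimulated genes was not tested.

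**Figure D5:**
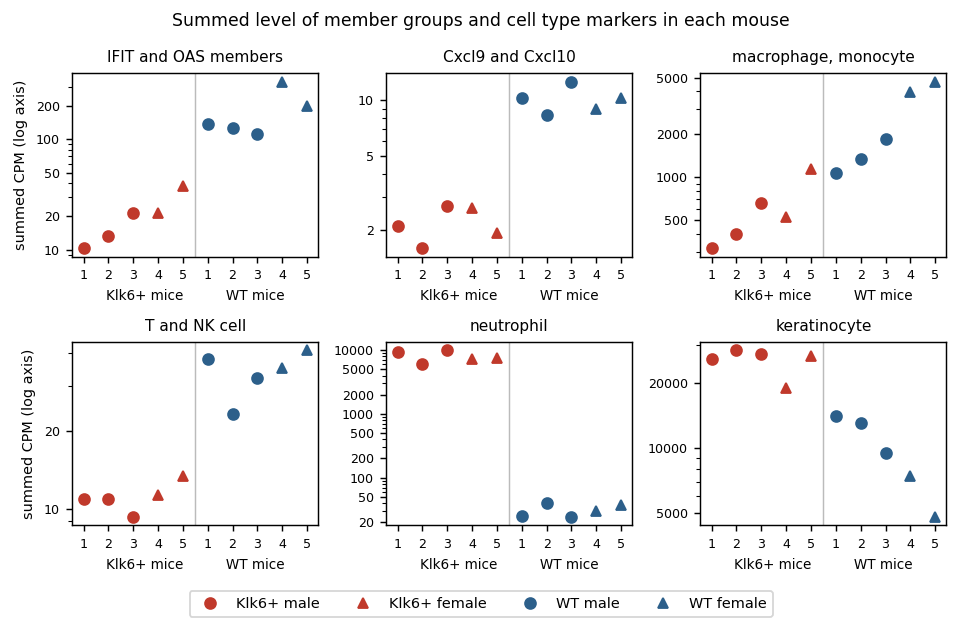
Summed CPM (log axis) in each mouse of the IFIT and OAS members, of Cxcl9 with Cxcl10, and of marker genes of 4 cell types, with Klk6+ mice left of the grey line and WT mice right of it; circles are males and triangles females. The IFIT and OAS sum and the macrophage sum are both highest in WT females 4 and 5 among WT mice and in Klk6+ female 5 among Klk6+ mice, while the chemokine sum is not.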

How the data were processed

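RNA was extracted from snap-frozen, pulverised skin and sequenced as polyA-selected libraries on an Illumina HiSeq instrument, single end, per the labels' protocols. The kit does not mark strand. Each mouse has its own table, in which the authors gave counts and FPKM by gene symbol. The deposited counts are whole numbers without normalization. The deposited FPKM values are scaled to transcript length and library size. The submitters' processing notes name TopHat2, SAMtools, HTSeq and Cufflinks 2.2.1 as tools and GRCm38 and mm10 as builds, without the step each served. The total behind FPKM, the annotation version and the treatment of reads shared by several genes were not stated in these sources.

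Counts were tested in R 4.3.3 with edgeR 4.0.16 (filterByExpr on genotype, minimum count 10, trimmed mean of M values, quasi-likelihood test on sex plus genotype). The effect within each sex and the interaction came from 4 genotype-by-sex means with 1 shared spread. P-values were adjusted by Benjamini-Hochberg over all 14861 genes. CPM use the scaled library sizes. DESeq2 1.42.0, limma 3.58.1 (voom on counts, trend on log2 of FPKM plus 0.1 or 1), other scalings and filters, genotype alone, and leaving out mice served as alternatives, and leaving out WT 4 together with Klk6+ 5 was added after the data were seen. All tests were tried on simulated data with 200 changed genes. Replicate libraries of a genotype differed by far more than sampling noise (lowest chi-square per degree of freedom 40.5). Gene positions and exon overlaps were read from GENCODE M21 on GRCm38, and promoter windows from RefSeq on GRCm38.p6. Copies were sought as 50-base transcript windows found in another gene. Rnf213, Trdc and Ly6g, on the lists, were not analysed here, and a few genes of the pathway and marker lists are not reported here and stand in none of the lists' counts.

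The members and all gene lists were chosen with earlier results of these data known. Values by mouse were given, by rule, for 21 members it lists, for the members of most and least negative fold change in each role group, and for a few pathway genes. In each pathway list the genes of smallest p, at most 4 in either direction, were named, and further names were added after their values were seen.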

Additional observations from a re-analysis of the deposited data

Results flagged for a closer look

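Within a genotype, 1 mouse stood far from the other 4 in 8 of the 84 groups examined (42 members in each genotype), where the gap to the nearest mouse, as a share of the group's whole range, passed Dixon's 95% value. For normally distributed values chance flags about 1 in 20 groups. CPM were used here without logs, so high mice can be flagged more often than that. The members share mice, so the flags are not independent. Klk6+ female 5 was the high mouse in 5 of the 8. The share was 0.842 for Ddx58 (15.7 CPM, next 11.2 CPM), 0.826 for Ifi44 (1.3 CPM, next 0.648 CPM), 0.86 for Epsti1 (5.21 CPM, next 2.78 CPM), 0.738 for Parp14 (21.8 CPM, next 14.4 CPM) and 0.719 for Irf7 (11.8 CPM, next 6.03 CPM). WT female 4 was the high mouse for Ifit3, at a share of 0.714 (66.5 CPM, next 39.7 CPM), and for Irf7, at 0.767 (179 CPM, next 61.2 CPM). WT male 2 was the low mouse for Irf1, at a share of 0.764 (12.8 CPM, next 27.1 CPM). In the same mice the macrophage marker sum was also highest within Klk6+ (female 5, 1144 CPM), while in WT mice it was highest in female 5 (4691 CPM) and not in female 4 (3944 CPM). Their part in these values was not tested.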

How the results depend on the processing

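Of the 42 members 40 kept their direction and their side of the threshold in all 21 alternatives, and 0 reversed. The exceptions were Irf1, which lost its call in 11, and Ifi35, which was called lower without Klk6+ 1 (log2 fold change -0.28, adjusted p = 0.0314). The count of members called lower was 39 to 41 when single mice were left out and 39 to 40 otherwise, and the count called higher was 0 throughout. The members' median log2 fold change was -2.43 to -2.17 when single mice were left out. It was -1.34 on log2(FPKM + 1), a scale that by construction shrinks the change of low genes. Without Klk6+ 3 and 5 together it was -2.67, and Oasl1 then stood at -4.47, Mx2 at -3.51, Oasl2 at -3.59 and Oas3 at -2.99. In females the median was -2.91 to -2.23 when single mice were left out, with the lower end without Klk6+ 5 (the cause was not tested), and 37 to 40 members were called. In males 36 to 39 were called. The interaction called 0 members in every alternative, and over all genes 0 with edgeR and 261 with DESeq2. No paired analysis was possible because the labels give mouse numbers that pair no Klk6+ mouse with a WT mouse. Depth limited the interferon ligand genes, Mx1 and Mx2 most.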

Other observations

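Within the wider list of interferon-stimulated genes some families were split, and the families described here were picked after their values were seen. Of the PYHIN genes, which encode sensors or scaffolds for DNA, Ifi203, Ifi204, Ifi205 and Mndal were called lower (log2 fold changes -2.73, -1.95, -2.35 and -2.48), while Aim2, whose product opens an inflammasome on cytosolic DNA, was called higher (2.64). Each of these 5 genes kept its direction and its call in all 21 alternatives. Of the IFITM genes, which encode membrane proteins that hinder viral entry, Ifitm1 (2.77) and Ifitm2 (0.49) were called higher in every alternative, and Ifitm3 (0.02) was not called in any, with values between -0.11 and 0.11. Of the Schlafen genes, Slfn5 (-2.09) and Slfn8 (-2.03) were called lower, Slfn9 (1.64) was called higher, each in every alternative, and Slfn2 (-0.20) was called in none.

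The same list holds 4 genes of antigen processing, likewise grouped after their values were seen, and all 4 were called lower, where 35.1% of all genes tested were. The immunoproteasome genes Psmb8 (-1.30), Psmb9 (-1.53) and Psmb10 (-0.65) and the peptide transporter gene Tap1 (-1.23) kept the call in every alternative. Tap1 was at 39.8 ± 5.05 CPM in Klk6+ mice and 93.3 ± 16 CPM in WT mice (SD, n = 5 each).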
